A study of Mus musculus with 2 samples.

Results

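The genes described here are the 6 mouse microRNA genes of the miR-99/100 and miR-125 families: Mir99a, Mir99b, Mir100, Mir125a, Mir125b-1 and Mir125b-2. They were chosen by symbol in the GENCODE M21 annotation, matched through the Ensembl identifier of each counted gene, and all 6 were found among 2202 counted microRNA genes. The rule goes by names and has no threshold on a measured value, although the families were picked for description with earlier results of these data known. All 6 had at least 10 counts in both libraries, as did 333 of the 2202 genes.

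The libraries were microRNA sequencing libraries of adrenal gland tissue from male B6CASTF1/J mice, an F1 hybrid of C57BL/6J and CAST/EiJ, at 36 days of age. The labels give 1 group with 2 biological replicates, 1 library each, and no treatment or second condition. They number the animals separately but list the same donor record for both, and do not separate cortex from medulla. Values are sense-strand read counts per hairpin gene, given as CPM, the counts of a gene in 1000000 counts of all microRNA genes. Each read was taken to stand for 1 mature microRNA, so counts were not divided by gene length unless stated. Read lengths were not examined. With no second condition, the data answer 2 questions: the level of each gene in this tissue, and its difference between the 2 libraries. Any test between the libraries compares these 2 libraries only, and whether a difference between them comes from the animals or from preparation cannot be told apart. How CAST/EiJ alleles bear on mapping to mm10 was not tested.

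A microRNA acts through its seed, bases 2 to 8, which pairs with target messenger RNAs and lowers their translation and stability. In mammals, miR-99 or miR-100, a let-7 gene and a miR-125 gene lie in this order in 3 paralogous clusters. In Drosophila the 3 relatives are made from a single primary transcript. miR-125 is the counterpart of lin-4 of Caenorhabditis elegans, which together with let-7 times larval development. miR-99/100 microRNAs are known to repress Mtor, the kinase of a growth pathway. miR-125a has been described as a repressor of Scarb1, the receptor through which rodent steroid-producing cells take up cholesterol esters from high-density lipoprotein.

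The mature 5p sequences show which of the 6 genes can be told apart by their reads. They were taken from RefSeq (GRCm38.p6, the build called mm10), where all 6 genes had an entry, and are written 5′ to 3′ with the seed in capitals. By seed they form 2 groups, ACCCGUA for the miR-99/100 genes and CCCUGAG for the miR-125 genes.
miR-99a-5p: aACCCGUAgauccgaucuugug
miR-100-5p: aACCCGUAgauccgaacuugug
miR-99b-5p: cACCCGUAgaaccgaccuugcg
miR-125a-5p: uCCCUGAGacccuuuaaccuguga
miR-125b-5p: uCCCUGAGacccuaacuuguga

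With positions counted from 1 at the 5′ end, miR-99a-5p and miR-100-5p differ by 1 substitution, U16A, and share their first 15 bases. miR-99a-5p and miR-99b-5p differ by 4 substitutions, A1C, U11A, U16C and U21C. miR-125a-5p has 24 bases and miR-125b-5p 22, and they share the first 13. Mir125b-1 and Mir125b-2 encode the same miR-125b-5p, base for base. Among the counted hairpins, the miR-125b-5p sequence occurs in 2 and each of the other 4 sequences in 1. The 3p arms of the miR-125b genes differ from each other, and each occurs in 1 hairpin. They are shown, with no capitals, because reads from them can be placed at a single gene.
miR-125b-1-3p: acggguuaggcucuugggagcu
miR-125b-2-3p: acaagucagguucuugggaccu

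The 3 miR-99/100 genes were among the more abundant microRNA genes of the gland, and Mir99a was the highest of the 6. Mir99a (ENSMUSG00000065530.1) spans bases 77598936 to 77599000 of chromosome 16 in mm10, within an intron of its host transcript Mir99ahg and opposite an intron of Gm11146. It had 83122 and 26869 counts, or 18493 and 12925 CPM, in replicates 1 and 2, a mean of 15709 ± 3937 CPM (SD, n = 2). It took place 15 of 2202 genes by mean CPM. Its share of gene counts was 1.85% in replicate 1 and 1.29% in replicate 2, with Clopper-Pearson 95% intervals of 1.84 to 1.86 and 1.28 to 1.31.

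Mir99b (ENSMUSG00000065396.1) spans bases 17830188 to 17830257 of chromosome 17, within an intron of the protein-coding gene Spaca6. It had 36062 and 11920 counts in replicates 1 and 2, or 8023 and 5734 CPM, and a mean of 6878 ± 1619 CPM (SD, n = 2, place 28). Mir100 (ENSMUSG00000093011.1) spans bases 41531425 to 41531504 of chromosome 9, within introns of 3110039I08Rik (listed as Mir100hg in RefSeq) and Gm49317, opposite an exon of Gm48742. It had 16402 and 4170 counts, or 3649 and 2006 CPM, and a mean of 2828 ± 1162 CPM (SD, n = 2, place 44). All 3 genes of this family were higher in replicate 1.

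The family as a whole took 3.02% of gene counts in replicate 1 (95% interval 3.00 to 3.03). In replicate 2 it took 2.07% (2.05 to 2.09), and the mean was 2.54% ± 0.672 (SD, n = 2). The order of its genes by share of the family's counts was the same in both libraries, and the share of Mir100 was lower in replicate 2. Mir99a held 61.3% and 62.5% of the family's counts in replicates 1 and 2, Mir99b 26.6% and 27.7%, and Mir100 12.1% and 9.71%.

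Among the miR-125 genes, Mir125a held nearly all gene counts, which leave out reads that map to several places. Mir125a (ENSMUSG00000065479.2) spans bases 17830812 to 17830879 of chromosome 17, where an exon of Spaca6 overlaps it. It had 21272 and 16776 counts, or 4733 and 8070 CPM, in replicates 1 and 2, a mean of 6401 ± 2360 CPM (SD, n = 2, place 33). In CPM, which is scaled to gene counts, it was higher in replicate 2, in contrast to the miR-99/100 genes. Its raw count was higher in replicate 1. Scaled to all reads, 12289288 in replicate 1 and 10323816 in replicate 2, Mir125a was also higher in replicate 1. The miR-99/100 genes were too, so the contrast depends on the total used for scaling. Its share of the miR-125 counts was 91.7% in replicate 1 and 95.0% in replicate 2, with 95% intervals of 91.3 to 92.0 and 94.7 to 95.3.

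Mir125b-1 and Mir125b-2 were counted far lower. Mir125b-1 (ENSMUSG00000093354.1) spans bases 41581926 to 41582002 of chromosome 9, within introns of 3110039I08Rik and Gm49317 and in an exon of the sense-intronic gene Gm28119. It had 1141 and 427 counts in replicates 1 and 2, or 254 and 205 CPM, and a mean of 230 ± 34.3 CPM (SD, n = 2, place 155). Mir125b-2 (ENSMUSG00000065472.1) spans bases 77646273 to 77646343 of chromosome 16, within an intron of Mir99ahg, and its end overlaps an exon of C130023A14Rik. It had 795 and 450 counts, or 177 and 216 CPM, and a mean of 197 ± 28.0 CPM (SD, n = 2, place 165). Their levels are uncertain. A read of the shared miR-125b-5p matches both hairpins, and multiply mapping reads, 29.8% of replicate 1 and 21.5% of replicate 2, stand on a separate line outside the gene counts. The counts do not separate the arms of a hairpin, and how many of the multiply mapping reads were miR-125b-5p was not tested. The summed level of these 2 genes was nearly the same in both libraries, at 431 and 422 CPM in replicates 1 and 2.

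Together the miR-125 genes took 0.516% of gene counts in replicate 1 (95% interval 0.510 to 0.523). In replicate 2 they took 0.849% (0.837 to 0.862), and the mean was 0.683% ± 0.235 (SD, n = 2). The counted miR-99/100 genes therefore exceeded the counted miR-125 genes 5.84-fold in replicate 1 and 2.43-fold in replicate 2. The 6 genes together held 3.53% and 2.92% of gene counts in replicates 1 and 2.

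**Figure D1:**
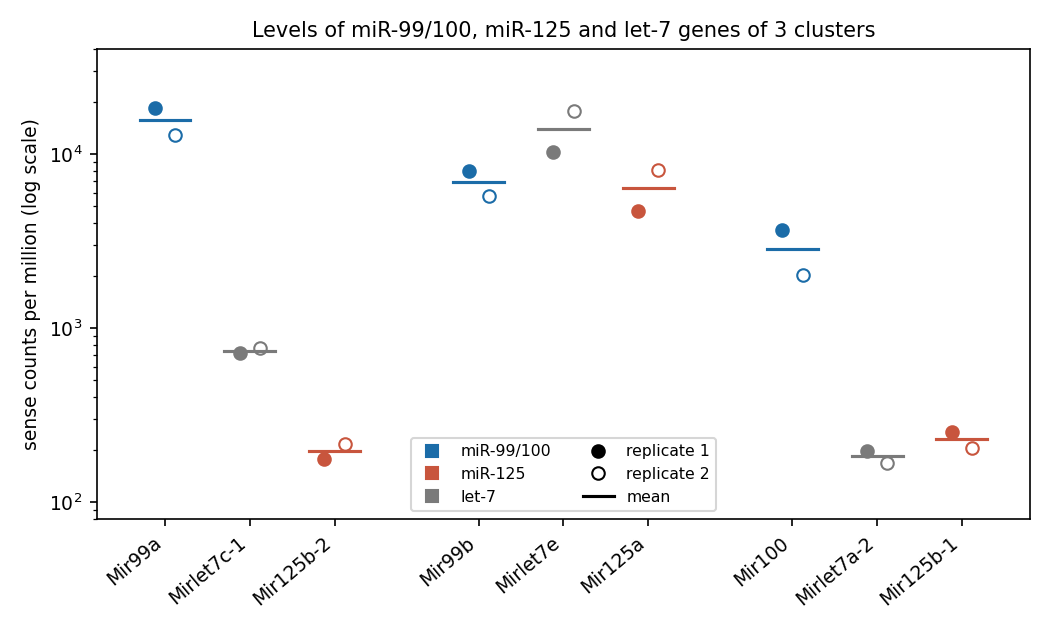
Sense CPM (log axis) of the 6 genes and of the let-7 gene of each cluster, with replicate 1 as filled and replicate 2 as open circles and the mean of both as a line. By mean, Mir99a had the highest level, though in replicate 2 Mir99a had 12925 CPM and Mirlet7e 17598 CPM. In both libraries the genes Mir125b-1, Mir125b-2 and Mirlet7a-2 had the lowest, between 168 and 254 CPM.

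By mean CPM the order was Mir99a, Mir99b, Mir125a, Mir100, Mir125b-1 and Mir125b-2. Of these neighbours, Mir99b and Mir125a overlapped over the libraries, as did Mir125b-1 and Mir125b-2, so the order within each of these pairs is unresolved. Mir99b was 1.70-fold above Mir125a in replicate 1 and 0.711 times its level in replicate 2. Mir99a stood above Mir99b by 2.30-fold and 2.25-fold in replicates 1 and 2. Mir125a stood above Mir100 by 1.30-fold and 4.02-fold. The order of mean levels was the same when counts were divided by the hairpin length of 65 to 80 bases. With 2 libraries the smallest p of a two-sided exact permutation test is 0.33, and these differences are therefore set against the ranges only. All 6 genes had 0 antisense counts, and their strand-blind counts equalled their sense counts.

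Within the clusters, the 6 genes stood between 0.248 and 25.9 times the sense counts of the let-7 gene on the same strand. In the compact cluster on chromosome 17, Mir99b, Mirlet7e and Mir125a start within 0.624 kb. Mirlet7e, whose mature sequence occurs in 1 counted hairpin, had 10326 and 17598 CPM in replicates 1 and 2 (13962 ± 5142, SD, n = 2). Mir125a stood at 0.458 times the sense counts of Mirlet7e in replicate 1 and 0.459 times in replicate 2, so both genes shifted between the libraries by the same factor. Mir99b, whose start lies 0.164 kb before that of Mirlet7e, stood at 0.777 and 0.326 times the counts of Mirlet7e in replicates 1 and 2, and did not shift with it. The strand-blind counts of Mirlet7e were 0, because Gm25927 overlaps it on the opposite strand, so these ratios rest on the sense column.

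The clusters on chromosomes 16 and 9 are longer, with the miR-125b gene starting 47.3 kb after Mir99a and 50.5 kb after Mir100. On chromosome 16, Mirlet7c-1 had 713 and 762 CPM in replicates 1 and 2 (738 ± 34.6, SD, n = 2). Mir99a exceeded it 25.9-fold and 17.0-fold in sense counts, while Mir125b-2 stood at 0.248 and 0.284 times its counts. On chromosome 9, Mirlet7a-2 had 197 and 168 CPM in replicates 1 and 2 (183 ± 20.3, SD, n = 2). Mir100 exceeded it 18.5-fold and 11.9-fold, while Mir125b-1 stood at 1.29 and 1.22 times its counts. The 5p sequences of Mirlet7c-1 and Mirlet7a-2 each occur in 2 counted hairpins, so their counts, and the ratios over them, are uncertain as well.

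Across these 9 genes, level went with the number of counted hairpins that hold the same 5p sequence. The 5 genes whose 5p sequence occurs in 1 hairpin (Mir99a, Mir99b, Mir100, Mir125a and Mirlet7e) had means of 2828 to 15709 CPM. The 4 genes whose 5p sequence occurs in 2 (Mir125b-1, Mir125b-2, Mirlet7a-2 and Mirlet7c-1) had means of 183 to 738 CPM. The groups did not overlap among these 9 genes, but they did over all 12 let-7 genes. There Mirlet7f-2, in 2 hairpins, had a mean of 4346 CPM, and Mir98, in 1, a mean of 3521 CPM. Whether the split holds over all counted genes was not tested. How much of the gap stands in the reads that map to several places was not tested.

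**Figure D2:**
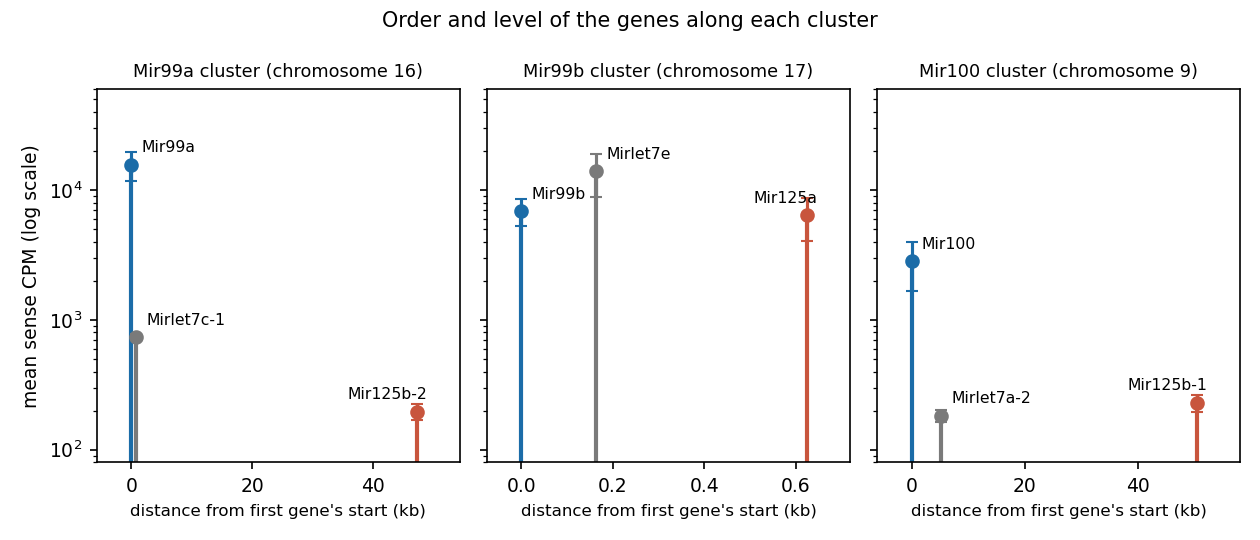
Mean sense CPM (log axis) of each gene against the distance of its start from the start of the first gene of its cluster, with the SD over 2 libraries as error bars and colours by family (blue miR-99/100, grey let-7, red miR-125). In the short cluster on chromosome 17 the 3 genes lie between 6401 and 13962 CPM, and in the long clusters the miR-99/100 gene stands far above the others. Those others are the 4 genes whose 5p sequence occurs in 2 counted hairpins, so their levels are uncertain.

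Between the libraries, the miR-99/100 genes were higher in replicate 1, and the miR-125 genes differed among themselves. Ratios are replicate 1 over replicate 2 on the log2 scale after scaling by the trimmed mean of M-values (TMM) in edgeR. The test was a two-sided exact binomial test with Benjamini-Hochberg adjustment over all 333 genes. Mir100 had the largest ratio of the 6, at 1.05 (95% counting interval 1.00 to 1.10). Mir99a stood at 0.70 (0.68 to 0.72) and Mir99b at 0.67 (0.64 to 0.70). Of the miR-125 genes, Mir125a was higher in replicate 2, at -0.58 (-0.61 to -0.56). Mir125b-1 was higher in replicate 1, at 0.49 (0.33 to 0.65, adjusted p = 1.82e-09). Mir125b-2 stood at -0.11 (-0.27 to 0.06, adjusted p = 0.243) and was not past this exact binomial test, though with library-size scaling it was, at -0.29 (adjusted p = 0.00106).

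Of the 6 genes, 4 were called higher in replicate 1 and 1 in replicate 2. The same test called 78.1% of all 333 genes, 38.7% higher in replicate 1 and 39.3% higher in replicate 2, because counting noise is the only error it allows for. The share called among the 6 is thus near that of all genes. The median ratio was 0.58 over the 6 genes and -0.01 over all genes tested, where the quartiles were -0.69 and 0.59. The edgeR exact test, whose dispersion (a biological coefficient of variation of 52.2%) comes from the same 2 libraries, called none of the 6 and 1.8% of all genes. At an unadjusted p under 0.05 it called 0 of the 6 and 17 of the 333 genes. With library size in place of TMM all ratios were lower by 0.19, and the 6 genes split into 4 higher in replicate 1 and 2 higher in replicate 2, beside 33.6% and 44.7% of all genes.

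**Figure D3:**
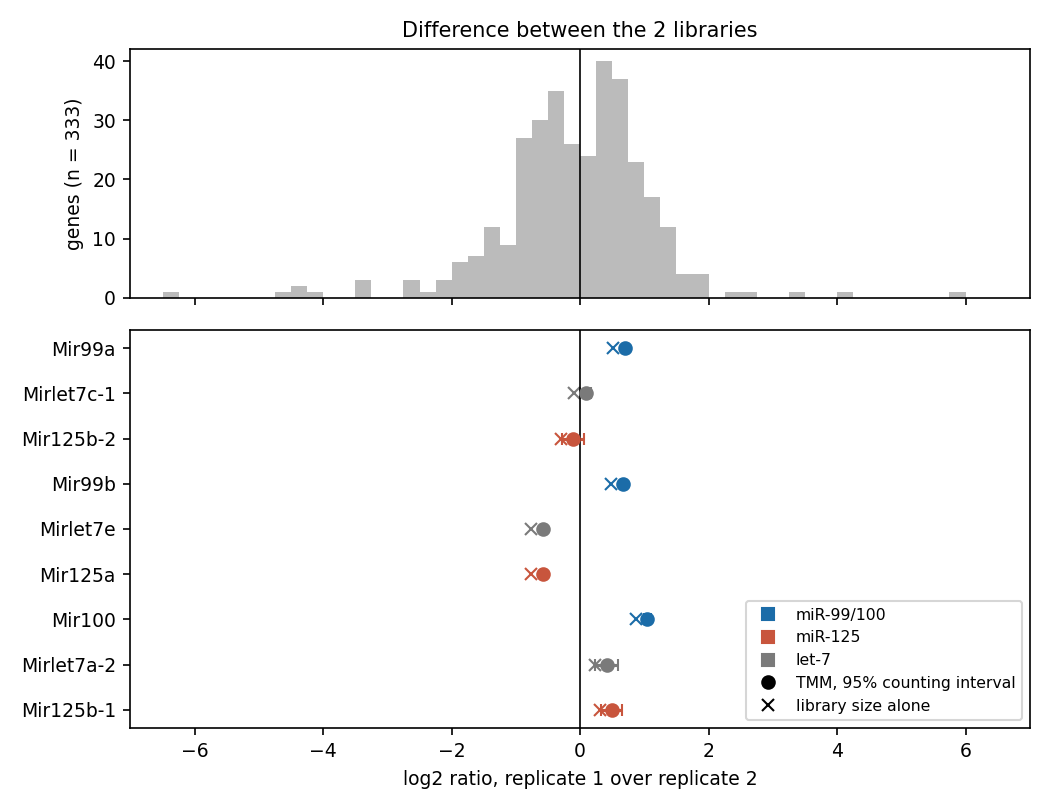
Log2 ratio of replicate 1 over replicate 2 for all 333 genes as a histogram (above) and for the 6 genes and 3 let-7 genes (below), as dots with 95% counting intervals after TMM scaling and as crosses with library size alone. Mir99a, Mir99b and Mir100 lie right of 0, while Mir125a and Mirlet7e lie left of 0 at nearly the same value.

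Ratios between genes of one library need no scaling, and they set each miR-99/100 gene against the miR-125 gene of its cluster. These ratios were chosen after the levels were seen. Mir99b over Mir125a was 1.70 in replicate 1 (exact 95% counting interval 1.67 to 1.72) and 0.711 in replicate 2 (0.694 to 0.727). Mir99a over Mir125b-2 was 105 in replicate 1 (97.5 to 112) and 59.7 in replicate 2 (54.4 to 65.7). Mir100 over Mir125b-1 was 14.4 in replicate 1 (13.5 to 15.3) and 9.77 in replicate 2 (8.84 to 10.8). The ratios over Mir125b-1 and Mir125b-2 rest on uncertain counts, since reads of their shared 5p sequence can map to both hairpins. The counting intervals do not cover this. In each cluster the miR-99/100 gene thus stood higher relative to its miR-125 gene in replicate 1, by 2.39-fold, 1.75-fold and 1.47-fold for the clusters of Mir99b, Mir99a and Mir100. The intervals do not overlap, and cover counting error only. With counting error alone, 78.1% of all 333 genes were called different between the libraries. Their median absolute log2 ratio was 0.62. How often other pairs of genes differ as much was not tested. With 1 library from each replicate, the spread between animals of such a ratio was not measured.

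**Figure D4:**
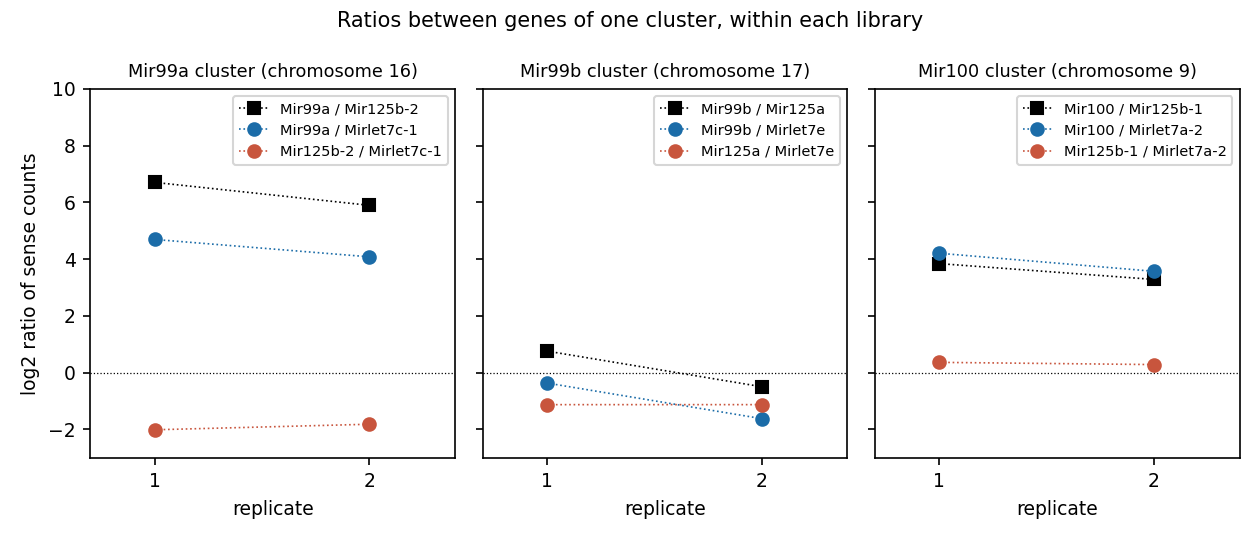
Log2 ratios of sense counts between genes of one cluster in replicates 1 and 2, with dotted lines that only join the same ratio. The ratios of miR-99/100 over miR-125 genes (black squares) and over let-7 genes (blue) were lower in replicate 2 in all 3 clusters, and Mir125a over Mirlet7e (red, middle) was the same in both libraries.

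Base composition moved with the ratios between the libraries. Across the 333 genes, hairpin GC content and the log2 ratio had a Spearman's rho of -0.26, a description over genes that are not independent of each other. The hairpins held 67.1% GC for Mir99b, 60.3% for Mir125a, 53.2% for Mir125b-1, 52.3% for Mir99a, 47.9% for Mir125b-2 and 47.5% for Mir100, against a median of 50.5% over the tested genes. With a linear correction for GC content, added after the data were seen, the ratios became 1.10 for Mir99b, 0.96 for Mir100, 0.74 for Mir99a, 0.55 for Mir125b-1, -0.19 for Mir125b-2 and -0.34 for Mir125a. All 6 kept their sign, and 4 were called higher in replicate 1 and 2 in replicate 2, beside 38.7% and 38.1% of all genes. The log2 contrast between the libraries of the miR-99/100 gene over its miR-125 gene was 1.44 with and 1.25 without the correction for Mir99b over Mir125a. It was 0.93 with and 0.81 without it for Mir99a over Mir125b-2, and 0.41 with and 0.56 without it for Mir100 over Mir125b-1.

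Other microRNA genes with one of these seeds were few. A search of the RefSeq mature sequences found no other gene with the miR-99/100 seed. It found 3 with the miR-125 seed, Mir351, Mir6367 and Mir6394. Mir351, a gene of the X chromosome, is shown because it is the relative that was counted.
miR-351-5p: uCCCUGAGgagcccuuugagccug

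Mir351 had 7956 and 3503 counts in replicates 1 and 2, or 1770 and 1685 CPM (1728 ± 60.1, SD, n = 2), and lay between Mir100 and Mir125b-1 in level. Mir6367 and Mir6394 had 0 counts in both libraries, and a count of 0 allows up to 3 counts, or 0.667 CPM in replicate 1 and 1.44 CPM in replicate 2. Mir10a and Mir10b, often placed with miR-99/100 in one broad family by sequence, had higher means than Mir100 and Mir99b. Mir10b stood at 11612 and 12189 CPM in replicates 1 and 2, and Mir10a at 47186 and 21092 CPM.

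The genes whose level in both libraries lay closest to each of the 6, by distance in log2 CPM over the 2 libraries, came from various loci. For Mir99b these were Mir411 (distance 0.12) and Mir191 (0.12), for Mir100 Mir7b (0.26) and Mir28a (0.44), and for Mir125a Mir29a (0.14) and Mir27b (0.35). For Mir99a the nearest, Mir127 (0.66) and Mir10b (0.68), lay farther away. For Mir125b-1 they were Mir196b (0.01) and Mir24-2 (0.13), and for Mir125b-2 Mir193a (0.17) and Mir381 (0.17). Mir24-2 has a copy at another locus, so its level is uncertain. A profile of 2 libraries holds little more than a level and 1 ratio.

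The libraries differed in depth and in markers of other cell types. Replicate 1 held 12289288 reads, of which 4494857 (36.6%) were sense counts of microRNA genes, and replicate 2 held 10323816 reads, of which 2078824 (20.1%) were. Only microRNA genes were counted, so no gene that defines adrenal cortex or medulla could be checked. The 4 neuroendocrine genes, led by Mir375 and all present, took 4.88% and 5.42% of gene counts in replicates 1 and 2, and the endothelial pair Mir126a and Mir126b 7.48% and 6.48%. The 2 smooth muscle and pericyte genes took 4.66% and 3.02%, the 5 leukocyte genes 0.322% and 0.390%, and the liver gene Mir122 0.138% and 0.284%. The 3 erythroid genes took 1.58% and 0.109%. The 5 epithelial miR-200 genes took 0.00647% and 0.358%. The 3 acinar pancreas genes had 0 counts in replicate 1 and 677 in replicate 2. Of the 9 neuronal genes 4 were counted (0.0947% and 0.0414%), with Mir124a-1, Mir124a-2, Mir124a-3, Mir9-2 and Mir9-3 at 0, and 4 of the 9 striated muscle genes (0.000467% and 0.00101%), with Mir1a-1, Mir1a-2, Mir133a-1, Mir133a-2 and Mir133b at 0. The part of these cell types in the ratios of the 6 genes was not tested. In tissue samples, fewer cells of a type and less RNA per cell cannot be told apart.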

How the data were processed

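The authors deposited raw counts of reads on each annotated microRNA gene for each of the 2 libraries, with a strand-blind column and 1 column per strand. Per the deposited text, reads were placed on mm10 and annotated with GENCODE M21. Which programs aligned and counted them is not given in the sources used here. GENCODE M21 held all 2202 gene identifiers and was the source of symbols, coordinates, host genes and hairpin GC content. The column used as sense was fixed beforehand, along with the choice of genes. Its gene total was larger than that of the antisense column in both libraries. Reads unmapped (26.4% and 51.9% in replicates 1 and 2), mapping to several places (29.8% and 21.5%) or outside genes (7.16% and 6.46%) stayed out of library sizes, and none were ambiguous in the sense column.

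CPM values and shares used the total of all gene counts. Intervals are exact Clopper-Pearson and cover counting error only, since PCR copies cannot be recognised. Ratios used edgeR TMM scaling and a minimum of 10 counts in each library, with an exact binomial test at an adjusted p of 0.05 over 333 genes. edgeR's quasi-likelihood test has no residual degrees of freedom here. The binomial test was first run on simulated counts that held counting noise only, scaled by library totals and not by TMM. That run cannot show how the test behaves with spread between libraries. The families described, the lists and the tests were chosen with earlier results of these data known. Genes named are the 6 genes, the let-7 gene of each cluster, genes sharing a seed, Mir10a and Mir10b, and the 2 nearest genes of each. Markers are given as lists.

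Alternatives covered count minimums of 5, 50 or none, library size or DESeq2 scaling, the strand-blind column, totals over all reads or without the highest gene, division by hairpin length, the edgeR exact test, a GC correction added after seeing the data, and each library alone. Tables and figures were made in Python 3.11.15 (pandas 2.3.3, NumPy 2.4.6, matplotlib 3.10.9, SciPy 1.17.1). Scaling was done in R 4.3.3 (DESeq2 1.42.0, edgeR 4.0.16).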

Additional observations from a re-analysis of the deposited data

How the results depend on the processing

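No paired analysis was possible because the labels give 1 group. Scaled to 1000000 reads of any kind, Mir99a stood at 4683, Mir99b at 2045, Mir100 at 869, Mir125a at 1678, Mir125b-1 at 67.1 and Mir125b-2 at 54.1, and the shares were 0.760% for miR-99/100, 0.180% for miR-125 and 0.940% for all 6 genes. With that scaling Mir125a was higher in replicate 1, whereas in CPM it was higher in replicate 2. In the strand-blind column Mir125b-1 stood at 282 CPM, Mir125b-2 at 242 CPM and the 6 genes at 3.95%. Without the highest gene, Mirlet7b, in the total, these were 264 CPM, 229 CPM and 3.71%. Per base of hairpin the 6 genes held 3.74%, and the log2 ratios over the let-7 gene were 4.92 for Mir99a, -1.51 for Mir125b-2, -0.67 for Mir125a and 0.64 for Mir125b-1.

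With the edgeR exact test no ratio of the 6 genes was past the threshold (Mir99a 0.70, Mir99b 0.67, Mir100 1.05, Mir125a -0.58, Mir125b-1 0.49). In either direction, 0 of the 6 genes were called. The dispersion of this test comes from the same 2 libraries, so the difference between them also counts as noise. In the exact binomial test with library size or the GC correction, Mir125b-2 was past the threshold, at -0.29 and -0.19. With each, 2 of the 6 genes were called higher in replicate 2. DESeq2 scaling and count minimums of 5, 50 or none changed no call. The log2 ratio of Mir99b over Mir125a, 0.13 in the mean, was between -0.49 and 0.76 with 1 library left out, which reverses it. With 1 library left out, between 2 and 6 of the 6 genes kept their place in the order. Strand-blind ratios over Mirlet7e could not be computed. Counting error alone leaves the ratio of Mir125b-2 between -0.27 and 0.06.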

Other observations

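The wider let-7 family was divided in the same way as the 3 clusters by the number of counted hairpins holding the 5p sequence, though with overlap. The 6 let-7 genes whose 5p sequence occurs in 1 hairpin had means from 3521 CPM for Mir98, a relative on the X chromosome, to 132884 CPM for Mirlet7b. The 6 whose 5p sequence occurs in 2 hairpins ran from 183 CPM for Mirlet7a-2 to 4346 CPM for Mirlet7f-2, so Mirlet7f-2 stood above Mir98. All 12 let-7 genes together held 25.3% and 33.9% of gene counts in replicates 1 and 2, against 3.53% and 2.92% for the 6 miR-99/100 and miR-125 genes. Between the libraries 6 let-7 genes were called higher in replicate 1 and 4 in replicate 2 by the exact binomial test, beside 38.7% and 39.3% of all genes tested. With library size in place of TMM they split into 6 and 6, beside 33.6% and 44.7% of all genes tested. These values have no test over the list.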
